A study of Mus musculus with 8 samples.

Results

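The genes described here encode 4 families of splicing factors, namely the SR proteins (symbols beginning Srsf), the heterogeneous nuclear ribonucleoproteins or hnRNPs (Hnrnp), the core proteins of the small nuclear ribonucleoproteins or snRNPs (Snrp) and the SF3a and SF3b proteins of the U2 snRNP (Sf3a and Sf3b). They were chosen by symbol alone among the protein coding genes, with no cutoff on their values, although earlier results of these data were known. The rule found 52 genes among the 28432 in the table, of which 17702 were protein coding, with 11 SR protein genes, 20 hnRNP genes, 12 snRNP genes and 9 SF3 genes. All 52 passed the filter on low counts.

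RNA was sequenced from embryonic mouse retina at E15.5, with both retinas of 1 embryo in each sample and 4 embryos of each genotype. Control embryos were *Lhx2* flox/+ and *Lhx2* conditional knockout (CKO) embryos carried 1 floxed and 1 null allele of *Lhx2*, a LIM homeodomain transcription factor gene of the eye field and the retinal progenitors. All embryos were heterozygous for Hes1CreERT2, a tamoxifen-inducible Cre recombinase inserted at the locus of the progenitor gene *Hes1*, and all came from dams gavaged at E11.5 with 0.15 to 0.2 mg of tamoxifen per gram of body weight. The controls could therefore also recombine their single floxed allele, and cells that did not express *Hes1* after tamoxifen were not targeted directly.

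Nuclear introns are removed by the spliceosome, which assembles anew on each intron from snRNPs. U1 reads the 5′ splice site and U2 the branch point, and U1, U2, U4 and U5 each hold a ring of Sm proteins on their small nuclear RNA. SR proteins bind exonic enhancers and recruit these particles, whereas hnRNPs coat nascent RNA and often, though not always, oppose them. In the developing retina, progenitors that divide and neurons that have left the cell cycle splice many transcripts differently.

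The libraries held 13143587 to 15063867 gene counts in controls against 13955259 to 19099937 in the CKO. *Lhx2* itself, counted over the whole gene including exons outside the floxed segment, ran from 3081 to 3631 normalized counts among the controls and from 2557 to 2868 among the CKO samples, which is no check of the deletion. A normalized count is a count divided by a size factor that levels the libraries by the median ratio over genes. Principal components placed the genotypes apart on the first axis (51.6% of the variance), and CKO replicate 1 and control replicate 3 at opposite ends of the second (19.1%). CKO replicate 1 was from the single female CKO embryo by its *Xist* count, whereas 2 of the 4 controls were female. The effect of leaving out these 2 libraries is given below where it changed a call or moved a called value by over 1.5 times. The defining markers of retinal progenitors and retinal ganglion cells were all detected, and the pigment epithelium list summed to 229.5 to 381.6 normalized counts in controls against 76.8 to 112.7 in the CKO.

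Most splicing factor genes were slightly lower in the CKO, and the snRNP genes most often passed the test. Of the 52 genes, 19 fell and 1 rose at an adjusted p below 0.05 in edgeR's quasi-likelihood test, with Benjamini-Hochberg adjustment over 13891 genes. Among all genes tested, 17.4% fell and 15.9% rose at the same cutoff, so the 36.5% of splicing factor genes that fell lies above that background and the single rise below it. At the cutoff of 0.001, 1 gene fell and none rose, against 4.97% and 3.64% of all genes. DESeq2 called 7 falls and no rise at 0.001, against 8.87% and 8.34% of all genes. At an unadjusted p below 0.05, 29 fell and 2 rose in edgeR, against 22.3% and 21.3% of all genes, the rises being *Srsf12* and *Snrpn*. The log2 fold change (CKO over control) was negative for 44 genes and positive for 8, with a median of -0.12 and a range of -0.36 to 0.37, whereas the median over all genes tested was 0.01.

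The changes were small. The standard errors of the log2 fold changes lay between 0.04 and 0.13. For 47 of the 52 genes the 95% interval excluded a fall of 25%, and for 50 it excluded a rise of 25%. In 27 genes the 4 CKO samples lay wholly below the 4 controls, in 1 they lay wholly above, and in 24 the genotypes overlapped. Over all genes tested, 17.9% lay wholly below and 15.9% wholly above. Summed over the 52 genes, the normalized counts were 290482, 294327, 295627 and 297998 in controls against 275817, 276465, 269428 and 274145 in the CKO. Every CKO sample lay below every control in this sum of relative levels. The same held in the hnRNP, snRNP and SF3 families, but the SR protein sum of CKO replicate 1 (52030) exceeded every control (at most 50225).

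**Figure D1:**
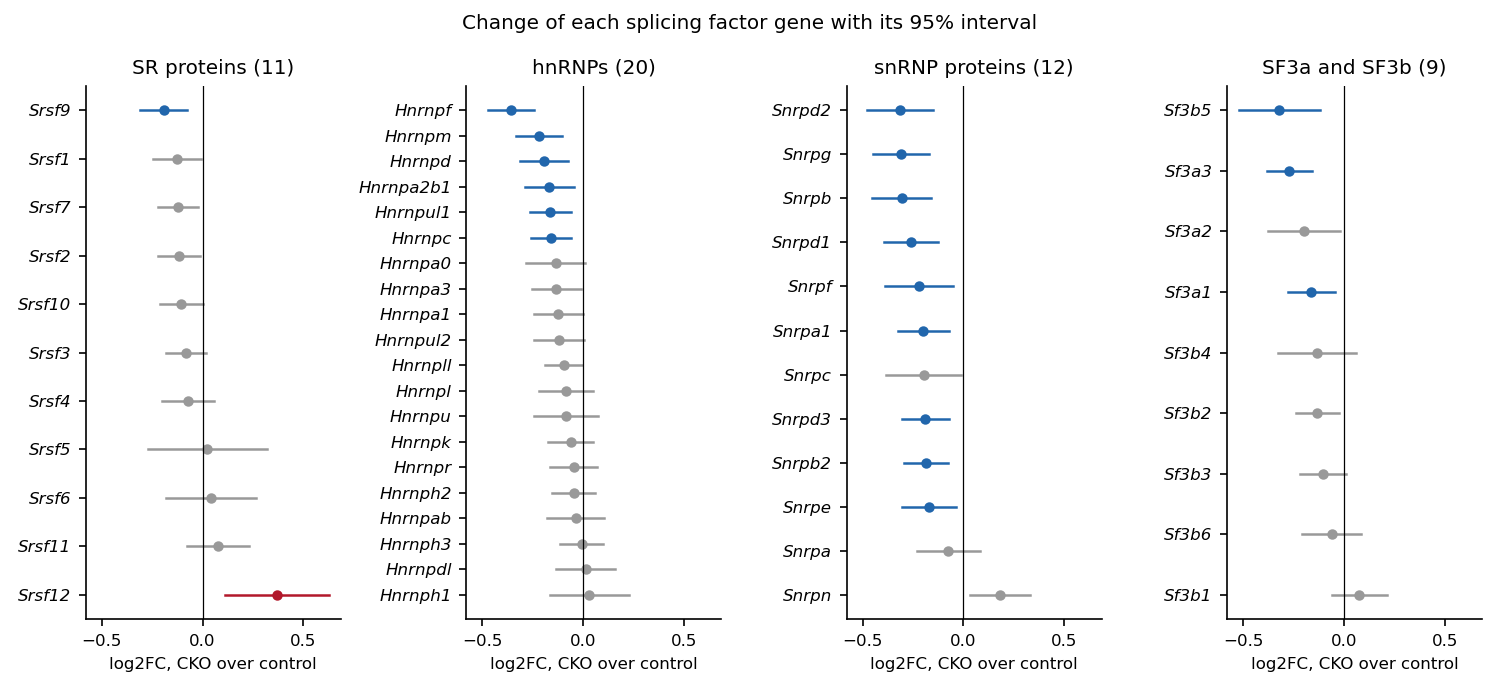
Log2 fold change (log2FC, CKO over control, horizontal axis) of each of the 52 genes with its 95% interval, 1 panel per family, from 4 control and 4 CKO samples. Blue genes fell and the red gene rose at an adjusted p below 0.05. Blue marks 9 of 12 snRNP genes but 1 of 11 SR protein genes.

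Whole retinas were sequenced, so fewer cells of a type and less RNA per cell cannot be told apart. The 20 S phase and mitosis genes listed as markers of dividing cells all fell, 17 of them at 0.001, and their summed level went from between 69770 and 74470 normalized counts in controls to between 45820 and 52780 in the CKO. Of 10 retinal progenitor markers 7 fell and 1 rose at 0.05, and of 10 retinal ganglion cell markers 8 rose and 1 fell, with summed levels of 56450 to 66590 in controls against 76070 to 80940 in the CKO. Of 5 photoreceptor precursor markers 2 rose and none fell, and of 6 amacrine and horizontal cell markers 1 rose and 1 fell. Markers of other tissues that a dissection could carry were also counted. The lens list summed to 45.6 to 71.5 in controls against 62.9 to 137 in the CKO. The macrophage list gave 823 to 993 against 660 to 911, and the endothelial list 4322 to 4587 against 2615 to 3412. Blood markers gave 374.5 to 2344 against 585 to 1889. Periocular mesenchyme markers gave 202.1 to 288.5 against 271.3 to 576.2, with *Pdgfra* rising and *Col1a2* falling among 3 tested. Most of the endothelial sum was *Kdr* (4104 ± 142 against 2931 ± 305, SD, n = 4), which retinal progenitors also express, and of the 5 endothelial genes tested *Kdr* and *Cldn5* fell while *Pecam1*, *Cdh5* and *Emcn* did not pass. The part of these cell types in the splicing factor changes was not tested.

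In the snRNP family 9 of 12 genes fell, the highest share of the 4 families at 75.0%, and the median log2 fold change was -0.20. All 7 genes of the general Sm ring were among them. *Snrpg*, for the Sm protein G, had 1093, 1080, 1169 and 999 normalized counts in controls (replicates 1 to 4, in this order throughout) against 789, 906, 885 and 924 in the CKO, a log2 fold change of -0.31 ± 0.06 (SE, n = 4 per genotype) with an edgeR adjusted p of 0.00327. *Snrpb*, for the Sm proteins B and B′, had 3914, 3645, 4255 and 3769 in controls against 2737, 3391, 3153 and 3311 in the CKO, a log2 fold change of -0.31 ± 0.07 with an edgeR adjusted p of 0.0048. For both genes the highest CKO sample lay below the lowest control, and CKO replicate 1 was the lowest of all.

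Sm proteins D1 and D2 are the ring's neighbours that bind early in its assembly. *Snrpd1* gave 1667, 1699, 1907 and 1784 normalized counts in controls against 1318, 1566, 1501 and 1504 in the CKO, with a log2 fold change of -0.26 ± 0.06 and an edgeR adjusted p of 0.00654. *Snrpd2* fell by 0.32 on the log2 scale (SE 0.07) from a mean of 1921 ± 223 to 1541 ± 94.7 normalized counts (SD, n = 4). The remaining ring genes fell less steeply. *Snrpd3* fell by 0.19 (edgeR adjusted p = 0.0172), *Snrpf* by 0.22 (edgeR adjusted p = 0.0455) and *Snrpe* by 0.17 (edgeR adjusted p = 0.0472).

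The calls of *Snrpf* and *Snrpe* sat near the cutoff and held in 4 of 17 alternative settings each. Without control replicate 3 their edgeR adjusted p was 0.0891 and 0.056, and without CKO replicate 1 it was 0.0866 and 0.085. Without both libraries their log2 fold changes were -0.14 and -0.10. Exons of *Snrpf* overlapped *Ccdc38* and *4933408J17Rik* on the other strand, from which an unstranded library cannot tell them apart. Added gene by gene, the overlap came to 85.4% of its exon bases, an upper bound where both genes cover the same bases. The calls of *Snrpg*, *Snrpb*, *Snrpd1*, *Snrpd2* and *Snrpd3* held in all 17 settings. Without control replicate 3 and CKO replicate 1 together, however, the log2 fold changes shrank by over 1.5 times to -0.20 for *Snrpb*, -0.19 for *Snrpd2* and -0.12 for *Snrpd3*.

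The proteins particular to U1 and U2 gave a mixed result. *Snrpa1* and *Snrpb2*, whose products together bind a stem loop of the U2 RNA, fell by 0.20 and 0.19 on the log2 scale, with edgeR adjusted p of 0.0211 and 0.0143. *Snrpc*, for the U1 protein that contacts the 5′ splice site duplex, had a log2 fold change of -0.20 ± 0.09 that did not pass (edgeR adjusted p = 0.0972), and control replicate 3 held 1095 counts against 841 to 878 in the other controls. *Snrpa*, for a protein that binds a stem loop of the U1 RNA, had a log2 fold change of -0.08 with a 95% interval of -0.23 to 0.08.

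*Snrpn*, an imprinted gene for SmN, which stands in for SmB in neurons, was the only snRNP gene with a positive log2 fold change, at 0.18 ± 0.07. It had 1685, 1830, 2025 and 1657 normalized counts in controls against 2147, 2106, 1941 and 1943 in the CKO. The genotypes overlapped through control replicate 3, and the edgeR adjusted p was 0.0626. Without control replicate 3 its log2 fold change was 0.24 and the edgeR adjusted p 0.00811. Its exons overlapped other annotated genes, Snurf and *Gm38393* on the same strand among them, so its reads may be divided between them. Added gene by gene, so that a base under several genes counts for each, the overlap was 44.1% of its exon bases.

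The ratio of *Snrpb* to *Snrpn*, which puts the general Sm protein against its neuronal relative within each library, was 2.32, 1.99, 2.10 and 2.28 in controls against 1.28, 1.61, 1.63 and 1.70 in the CKO. Every CKO ratio lay below every control ratio, a difference of -0.49 on the log2 scale. A two-sided exact permutation test over all 70 arrangements gave p = 0.0286, the smallest that 4 against 4 allows. Adjusted over the 11 pairs of related genes compared, this exact test gave p = 0.157, which does not pass. No pair could pass this adjustment by its own separation alone, so the outcome does not decide whether this ratio differed.

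**Figure D2:**
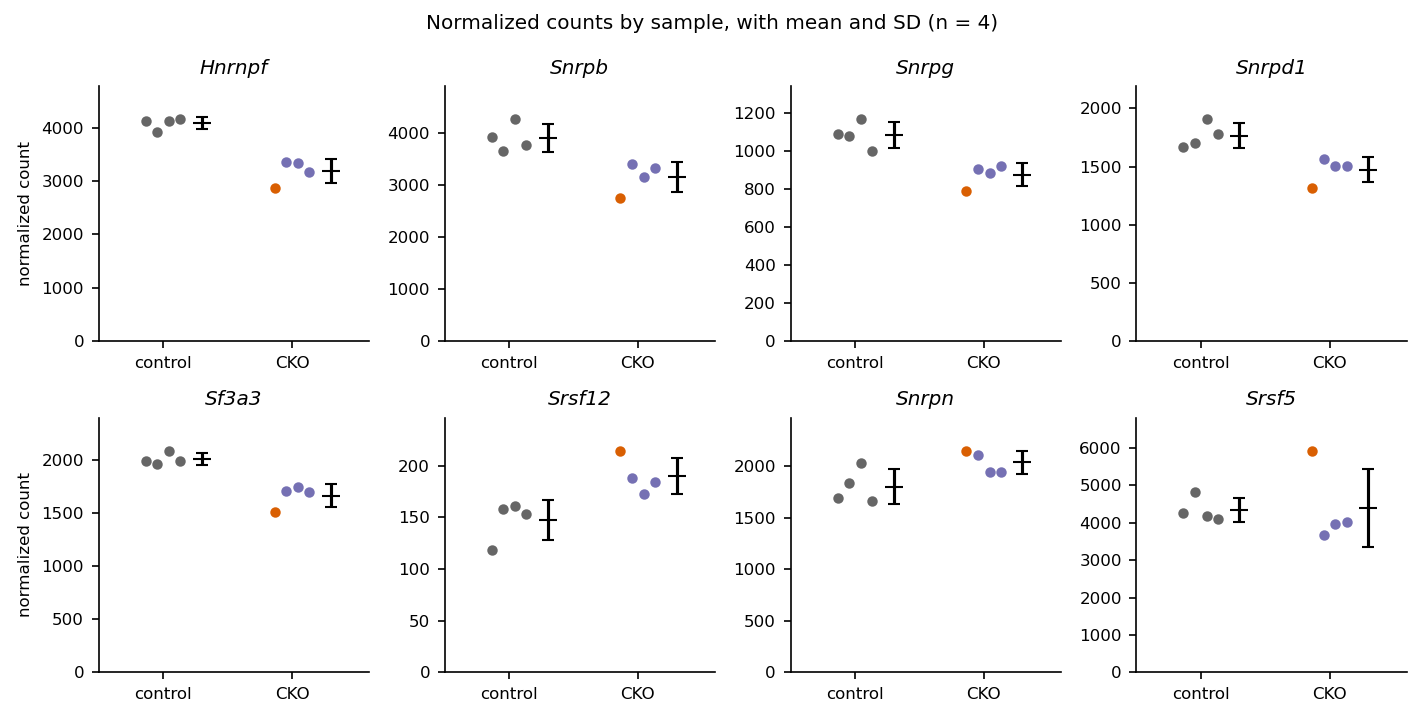
Normalized counts (vertical axis, starting at 0) of 8 genes in each control (grey) and CKO (purple, with CKO replicate 1 in orange) sample; black marks give the mean and SD of 4 samples. The genotypes separate for *Hnrnpf*, *Snrpb*, *Snrpg*, *Snrpd1*, *Sf3a3* and *Srsf12* and overlap for *Snrpn* and *Srsf5*, the last of which was chosen after its values were seen.

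SF3a and SF3b join the U2 snRNP and hold its RNA on the branch point. In this family 3 of 9 genes fell and none rose, and the median log2 fold change was -0.14. *Sf3a3*, for the SF3a subunit that contacts the U2 particle, had 1994, 1965, 2088 and 1993 normalized counts in controls against 1507, 1713, 1743 and 1695 in the CKO, a log2 fold change of -0.27 ± 0.05 with an edgeR adjusted p of 0.00194. The 2 genotypes were far apart relative to their spread, and the call held in all 17 alternative settings.

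*Sf3b5*, for a small subunit of SF3b, had 745, 680, 901 and 736 normalized counts in controls against 549, 602, 605 and 693 in the CKO, with a log2 fold change of -0.32 ± 0.09 and an edgeR adjusted p of 0.0187. Here CKO replicate 4 lay above control replicate 2, so the genotypes overlapped, and without control replicate 3 and CKO replicate 1 together the log2 fold change was -0.19 (edgeR adjusted p = 0.0432). *Sf3a1*, for the largest SF3a subunit, had 4175, 3738, 3681 and 3905 in controls against 3209, 3542, 3492 and 3608 in the CKO, a log2 fold change of -0.16 ± 0.05. Its edgeR adjusted p of 0.0386 became 0.0914 without CKO replicate 1, 0.0115 without control replicate 3 and 0.0142 without both, and the call held in 8 of 17 settings.

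The other 6 SF3 genes did not pass. *Sf3b1*, whose product clamps the branch point helix, was the one with a positive log2 fold change, with 8089 ± 388 normalized counts in controls against 8512 ± 464 in the CKO (SD, n = 4) and a 95% interval of -0.06 to 0.21 for the log2 fold change. *Sf3a2*, *Sf3b2*, *Sf3b3*, *Sf3b4* and *Sf3b6* had log2 fold changes between -0.20 and -0.06. *Sf3b4* shared 49.3% of its transcript 50-mers, the length of a read, with a processed pseudogene to which no reads were assigned.

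The promoters of this family shared a sequence feature that the choice of genes did not use. RefSeq promoter windows of GRCm38.p6, which run from 250 bases before to 50 bases after a transcription start, were matched for 46 of the 52 genes and for 7 of the 9 SF3 genes. The letters CCGGAAG, the core that Ets family factors bind, stood on either strand in the windows of 6 of these 7 genes, or 85.7%, as against 34.8% of the 46 matched genes and 19.4% of the 10164 matched genes that were tested. Each is given with 10 bases on each side, as read 5′ to 3′ along the gene, with the core in capitals (written CTTCCGG where it lies on the other strand).
Sf3a1: gagggcgggaCCGGAAGtgctcccgcg
Sf3a2: gcctttgctcCCGGAAGggatcgcttc
Sf3a3: ccccaagacaCTTCCGGgacacgcgga
Sf3b2: gattacgcaaCCGGAAGtttctggaag
Sf3b3: ccggtgggcgCTTCCGGgcttgcgagg
Sf3b6: ggtccgcaatCCGGAAGcgttctggag

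These stretches lie at chr11:4160337-4160363 for *Sf3a1*, chr10:80798649-80798675 for *Sf3a2*, chr4:124714761-124714787 for *Sf3a3*, chr19:5295452-5295478 for *Sf3b2*, chr8:110847016-110847042 for *Sf3b3* and chr12:4817528-4817554 for *Sf3b6*, on the minus strand for *Sf3b2* and *Sf3b3* and on the plus strand for the others. The core began 7 bases before the annotated start in *Sf3a1*, 13 in *Sf3b2*, 70 in *Sf3b6*, 76 in *Sf3a2*, 90 in *Sf3a3* and 229 in *Sf3b3*. *Sf3b2* has a second annotated start close by, from which the same core is 11 bases away, and the window of *Sf3b6* held 2 cores. *Sf3b1* was the matched gene without one. This is a description of 7 genes, and a match of letters is not evidence of binding.

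Among the other families the same letters were found in 4 of 11 SR protein genes, 4 of 10 snRNP genes and 2 of 18 hnRNP genes. The hnRNP promoters more often held CCAAT (13 of 18 genes, 72.2%, against 43.2% of tested genes), and the SR protein promoters the GC box GGGCGG (10 of 11 genes, 90.9%, against 70.1%). The median GC content of the windows was 69.0% for SR protein genes and 53.5% for snRNP genes, beside 61.0% for tested genes, and its part in the motif shares was not tested. The other motifs were searched on both strands as CACGTG (E-box), GCATGCGC (NRF1), ATGGCGGC (YY1), TGACGTCA (CRE) and TATAAA, the letters found ahead of some starts. In this order they stood in 11.1%, 4.76%, 11.1%, 3.17% and 11.1% of the 63 windows of the 4 families. Among the windows of tested genes the shares were 9.6%, 5.03%, 4.44%, 3.12% and 6.82%, and no motif contains another.

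hnRNPs bind nascent transcripts and had the highest median level of the 4 families in controls, at 1322 normalized counts per kilobase of exon, beside 883 for SR protein, 702 for snRNP and 459 for SF3 genes. Of their 20 genes 6 fell, 1 of them at 0.001, none rose, and the median log2 fold change was -0.11. *Hnrnpf*, whose product binds runs of G near splice sites, showed the largest fall of the 52 genes. It had 4132, 3914, 4119 and 4160 normalized counts in controls against 2867, 3366, 3340 and 3170 in the CKO. The genotypes were well separated, at 0.78 of the control level in the fit, and the log2 fold change was -0.36 ± 0.05 with an edgeR adjusted p of 4.1e-04.

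The adjusted p of *Hnrnpf* stayed below 0.05 in all 17 alternatives, between 1.52e-08 and 0.00272, but it rose above 0.001 when any of control replicates 1 or 4 or CKO replicates 2, 3 or 4 was left out. Its exons overlapped *4933440N22Rik* and Gm43863 on the other strand, for at most 26.5% of their bases, the overlaps with each gene being added. Also, 36.8% of its 50-mers occur in 7 processed pseudogenes, although the one with most of them (*Gm6430*) was assigned 5 reads against 29118 for *Hnrnpf*. Its close relatives *Hnrnph1*, *Hnrnph2* and *Hnrnph3*, which bind the same kind of G-rich sequence, had log2 fold changes of 0.03, -0.05 and -0.01 and none passed; whether they differed from *Hnrnpf* was not tested.

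*Hnrnpm*, which binds GU-rich intronic sequence, gave 9060, 8330, 8987 and 8950 normalized counts in controls against 7093, 7829, 7805 and 7620 in the CKO, a log2 fold change of -0.22 ± 0.05 with an edgeR adjusted p of 0.00815. *Hnrnpd*, also known as AUF1 for its role in the decay of AU-rich messages, gave 7289, 7532, 7759 and 8073 in controls against 6192, 7014, 6657 and 6890 in the CKO, a log2 fold change of -0.19 ± 0.05 with an edgeR adjusted p of 0.0177. In both genes the CKO samples lay wholly below the controls. The exons of *Hnrnpm* overlap those of *March2* on the same strand for 14.7% of their bases, and *March2* was assigned 3821 reads against 66000 for *Hnrnpm*.

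The other hnRNP genes that passed fell by less. *Hnrnpc*, for a protein that measures the length of nascent RNA and masks cryptic exons, fell by 0.16 (edgeR adjusted p = 0.0194), and *Hnrnpul1*, for a relative of the scaffold protein hnRNP U, fell by 0.16 (edgeR adjusted p = 0.0199). *Hnrnpa2b1*, one of the most abundant hnRNPs, fell by 0.17 (edgeR adjusted p = 0.0381). Its call held in 9 of 17 settings, and without CKO replicate 1, which stood above the other CKO samples, its edgeR adjusted p was 0.0108.

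The remaining 14 hnRNP genes did not pass. Those of the A group, which bind UAG motifs and often silence exons, had log2 fold changes of -0.14 (*Hnrnpa0*), -0.13 (*Hnrnpa3*) and -0.12 (*Hnrnpa1*). *Hnrnpab* had -0.04. *Hnrnpl* and *Hnrnpll*, which bind CA repeats, had -0.09 and -0.10, *Hnrnpk*, which binds C-rich sequence, -0.06, and *Hnrnpr* -0.05. *Hnrnpu* and *Hnrnpul2* had -0.08 and -0.12, but *Hnrnpu* passed without CKO replicate 1 (-0.17, edgeR adjusted p = 0.0232) and *Hnrnpul2* without control replicate 3 (-0.14, edgeR adjusted p = 0.0424). *Hnrnpdl*, a relative of *Hnrnpd*, had 0.01 (-0.0141 with library totals as size factors). The ratio of *Hnrnpd* to *Hnrnpdl* was 0.89 to 1.02 in controls against 0.73 to 0.89 in the CKO, with an exact permutation p of 0.0571 (0.157 adjusted over 11 pairs), so the opposite signs of the 2 genes are not shown to differ.

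By level per kilobase of exon in controls, hnRNP genes held the first 7 places among the 52. The length is that of all annotated exons merged, so the order depends on the annotation. Of the 50-mers of *Hnrnpa1* and *Hnrnpa3*, 46.7% and 27.7% occur in other genes too, which adds doubt to their counts. Such sharing exceeded 10% in 16 of the 52 genes. *Hnrnpa1* came first with 5599 normalized counts per kilobase, followed by *Hnrnpa2b1* (4987), *Hnrnpa0* (4463), *Hnrnpab* (4237), *Hnrnpk* (3063), *Hnrnph1* (2812) and *Hnrnpa3* (2681). *Snrpb* (1971), *Srsf2* (1952) and *Srsf1* (1932) came next, within each other's replicate spread. *Srsf12* was the lowest with 46.9. In the CKO the same 7 hnRNP genes still had the highest levels, between 2443 and 5140 per kilobase.

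**Figure D3:**
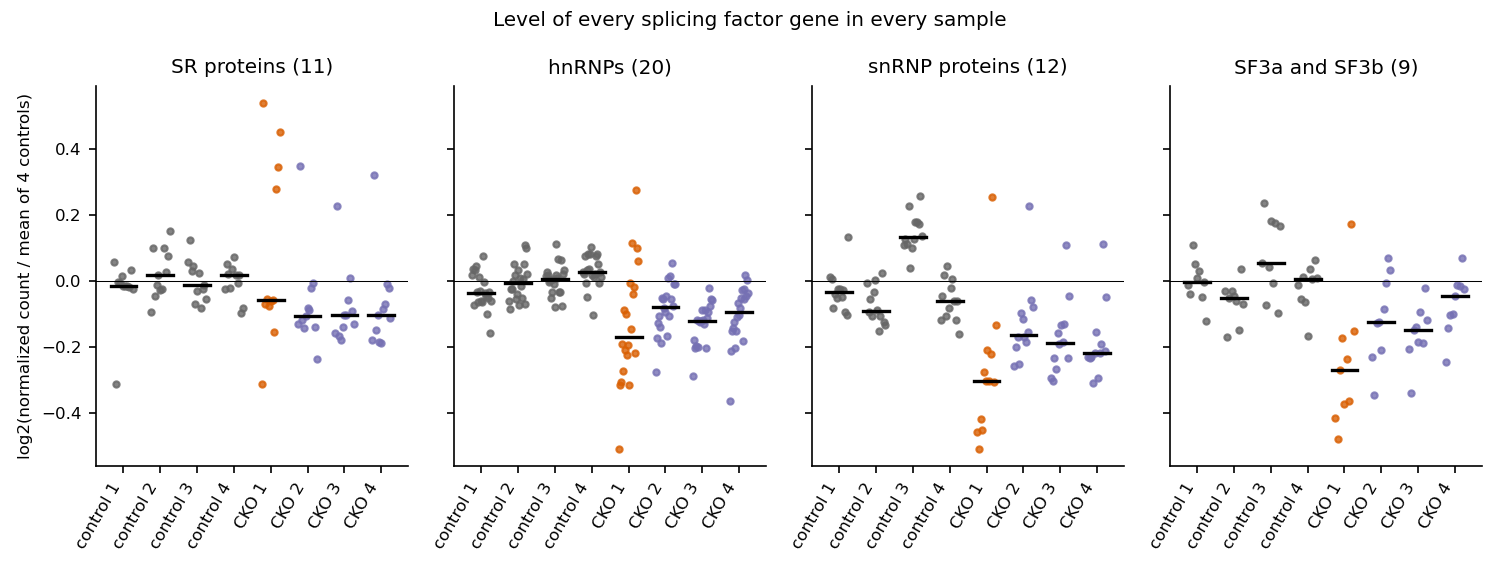
Level of every gene in every sample as log2 of its normalized count over the mean of the 4 controls (vertical axis), 1 panel per family; black bars are medians over genes and orange points are CKO replicate 1. The snRNP genes are high in control replicate 3 and, by their median, low in every CKO sample, with *Snrpn* as the exception above the control mean, whereas several SR protein genes are high in CKO replicate 1.

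SR proteins recognise exonic enhancers through RNA recognition motifs and recruit the splicing machinery through arginine-serine repeats. Of their 11 genes 1 fell and 1 rose, and the median log2 fold change was -0.08. *Srsf9*, for a close relative of *Srsf1*'s product, had 1519, 1367, 1520 and 1435 normalized counts in controls against 1176, 1332, 1307 and 1288 in the CKO, a log2 fold change of -0.19 ± 0.05 with an edgeR adjusted p of 0.0158. All CKO samples lay below all controls, and the call held in all 17 alternative settings.

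*Srsf12*, for a splicing repressor related to *Srsf10*, was the single rise among the 52 genes. It had 119, 158, 161 and 153 normalized counts in controls against 214, 188, 173 and 185 in the CKO, a log2 fold change of 0.37 ± 0.12 with an edgeR adjusted p of 0.0311. CKO samples lay wholly above controls, but the call held in only 11 of 17 settings, and without CKO replicate 1 the edgeR adjusted p was 0.0804. *Srsf10*, which represses splicing when dephosphorylated, had 3792, 3763, 3756 and 4027 in controls against 3676, 3623, 3567 and 3365 in the CKO, a log2 fold change of -0.11 ± 0.05 that did not pass. The ratio of *Srsf10* to *Srsf12* was 23.3 to 31.9 in controls against 17.1 to 20.6 in the CKO without overlap, with an exact permutation p of 0.0286 (0.157 adjusted over 11 pairs).

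*Srsf7*, whose product has a zinc knuckle that adds to its RNA binding, missed the cutoff narrowly (edgeR adjusted p = 0.0544). It had 5251, 5099, 5374 and 5334 normalized counts in controls against 5014, 4845, 4688 and 4745 in the CKO, wholly below. *Srsf1*, *Srsf2* and *Srsf3*, the classical exonic enhancer readers, had log2 fold changes of -0.13, -0.12 and -0.08, and in each of them the CKO samples lay below the controls although none passed. *Srsf4*, *Srsf5*, *Srsf6* and *Srsf11* overlapped between genotypes, with log2 fold changes of -0.07, 0.02 (-0.003 with library totals as size factors), 0.04 and 0.08.

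The SR protein counts depended on CKO replicate 1, from the single female CKO embryo, which held the highest CKO value for 9 of the 11 SR protein genes. With embryo sex as a term, 1 SR protein gene fell and 1 rose, as without it. Over all 52 genes 21 then fell, among them 10 of 12 snRNP genes, against 17.7% of all genes tested. *Snrpc* (edgeR adjusted p = 0.0459), *Sf3a2* (edgeR adjusted p = 0.022) and *Hnrnpa0* (edgeR adjusted p = 0.0497) then passed, whereas *Sf3a1* no longer did. Within the CKO, sex cannot be told apart from CKO replicate 1 itself. CKO replicate 1 held 5929 normalized counts of *Srsf5* against 3678, 3961 and 4010 in CKO replicates 2 to 4. For *Srsf6* it held 8651 against 6174, 6392 and 6703, and for *Srsf11* 4198 against 3448, 3481 and 3440. The hnRNP gene *Hnrnph1* behaved the same way, with 19894 against 15595, 15591 and 15913. In contrast, the same library held the lowest CKO value for 10 of 12 snRNP genes and 8 of 9 SF3 genes. Within these families it was therefore not simply high or low. Whether such counts differ from those among all genes was not tested. Across 13832 genes, the median deviation of CKO replicate 1 from the other CKO samples was -0.0921 for the shortest genes by exon length. For the longest genes it was -0.0083.

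**Figure D4:**
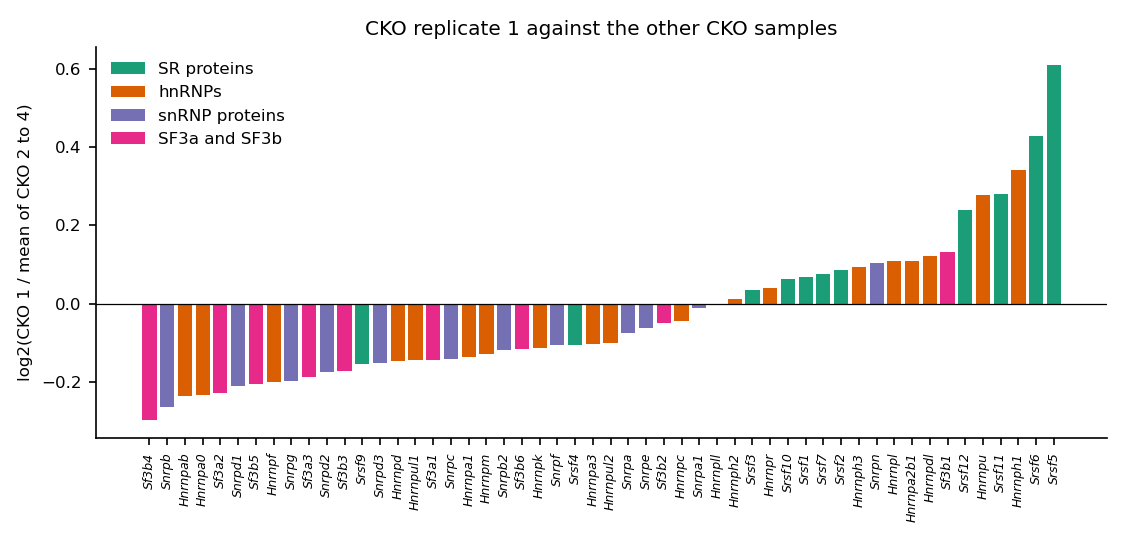
Log2 ratio of CKO replicate 1 to the mean of CKO replicates 2 to 4 (vertical axis) for each of the 52 genes, ordered by size and coloured by family. *Srsf5* stands highest at 0.61, and SF3 and snRNP genes make up most of the low end.

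Without CKO replicate 1, 3 SR protein genes fell at 0.05 (*Srsf2*, *Srsf7* and *Srsf9*) and none rose. In that setting 15.8% of all genes fell and 14.5% rose. Without control replicate 3 alone 2 fell (*Srsf1* and *Srsf9*) and *Srsf12* rose, where 18.3% of all genes fell and 17.3% rose. With both libraries left out, 6 fell (*Srsf1*, *Srsf2*, *Srsf5*, *Srsf7*, *Srsf9* and *Srsf10*) and *Srsf12* rose, with a median log2 fold change of -0.13. Of all genes 19.5% then fell and 19.3% rose. Summed over the family, SR protein genes had 49638, 50225, 49154 and 49490 normalized counts in controls, 52030 in CKO replicate 1 and 45853, 45672 and 45884 in the other CKO samples. Sums of the snRNP family were 19103 to 22069 in controls against 16425 to 18358 in the CKO. Without both libraries 7 of its 12 genes still fell, but its median log2 fold change went from -0.20 to -0.14. The SR protein genes, with 6 of 11 falling and a median of -0.13, were then close to it. For the SF3 genes the median went from -0.14 to -0.08, with 3 of 9 falling, where 19.5% of all genes fell. At the same time *Snrpn* then rose, with a log2 fold change of 0.21 ± 0.05 and an edgeR adjusted p of 0.0048.

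Libraries also differed from the others of their genotype by gene length, control replicate 3 the most. Across 13832 genes, Spearman's rho between exon length and a library's deviation from the other samples of its genotype was -0.425 for control replicate 3, 0.101 to 0.304 for the other controls, 0.146 for CKO replicate 1 and -0.099 to -0.041 for the other CKO samples. Across the 52 genes it was -0.634 for control replicate 3, 0.162 to 0.435 for the other controls, 0.442 for CKO replicate 1 and -0.386 to -0.214 for the other CKO samples. Control replicate 3 held the highest control value for 11 of the 12 snRNP genes, whose exon lengths run from 861 to 6521 bases. The log2 fold changes of the 52 genes had a rho of 0.353 with exon length, beside 0.168 across all genes. These values are descriptions across genes that share libraries, and the part of length in the snRNP result was not tested.

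Other genes of the splicing pathway were counted by list, beside the 17.4% of all genes that fell. Of the 7 LSm genes, whose products form the ring on the U6 RNA, 6 fell, with edgeR adjusted p of 0.00102 for *Lsm8*, 0.00112 for *Lsm2* and 0.00397 for *Lsm4* and log2 fold changes of -0.31, -0.44 and -0.33. Of 17 other proteins of the U4/U6.U5 tri-snRNP 7 fell and none rose, led by *Ppih*, a cyclophilin of the U4/U6 particle (-0.40), *Snrnp40* (-0.24) and *Eftud2*, the U5 GTPase (-0.17). Of 13 genes of the SMN complex and Sm assembly, which load Sm rings on small nuclear RNAs, 4 fell and none rose, led by *Gemin2* (-0.40), *Gemin6* (-0.50) and *Snupn*, the import adaptor of assembled snRNPs (-0.28).

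Fewer genes passed in the other lists. Of 16 U1, U2AF and SF1 recognition factors 2 fell, *U2af1*, which reads the end of the intron at the 3′ splice site (-0.34), and *Htatsf1* (-0.13), whereas *Luc7l* (0.20) did not pass. Of 22 Prp19 complex and catalytic step factors 5 fell and the median log2 fold change was -0.13, with *Cwc15* (-0.22), *Prpf19* (-0.18) and *Dhx16* (-0.15) first by p. Among 9 minor spliceosome proteins *Snrnp25* alone fell (-0.27), and *Snrnp35* (-0.17) and *Snrnp48* (-0.17) did not pass. Among 15 exon junction complex and nonsense-mediated decay genes *Magoh*, a core subunit of the junction complex, alone fell, with a log2 fold change of -0.35 and an edgeR adjusted p of 8.77e-04, and *Smg5* (0.10) and *Rbm8a* (-0.15) did not pass.

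The kinases, import factors and relatives of the SR proteins seldom passed the test. Of 21 tested genes 1 fell and none rose, and the median log2 fold change was 0.05. The fall was *Tra2b*, an SR-like activator of exon inclusion, with 4190, 4127, 4334 and 4264 normalized counts in controls against 3399, 3695, 3540 and 3502 in the CKO, wholly below, and an edgeR adjusted p of 8e-04. *Rnps1* (-0.15) and *Srpk2*, an SR protein kinase (0.13), did not pass. The summed level of this list was 61240 to 72130 in controls against 65730 to 82500 in the CKO, with the highest value in CKO replicate 1. *Clk1*, a nuclear SR protein kinase looked at after its values were seen, had 2728 normalized counts in that library against 1524, 1602 and 1688 in the other CKO samples.

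**Figure D5:**
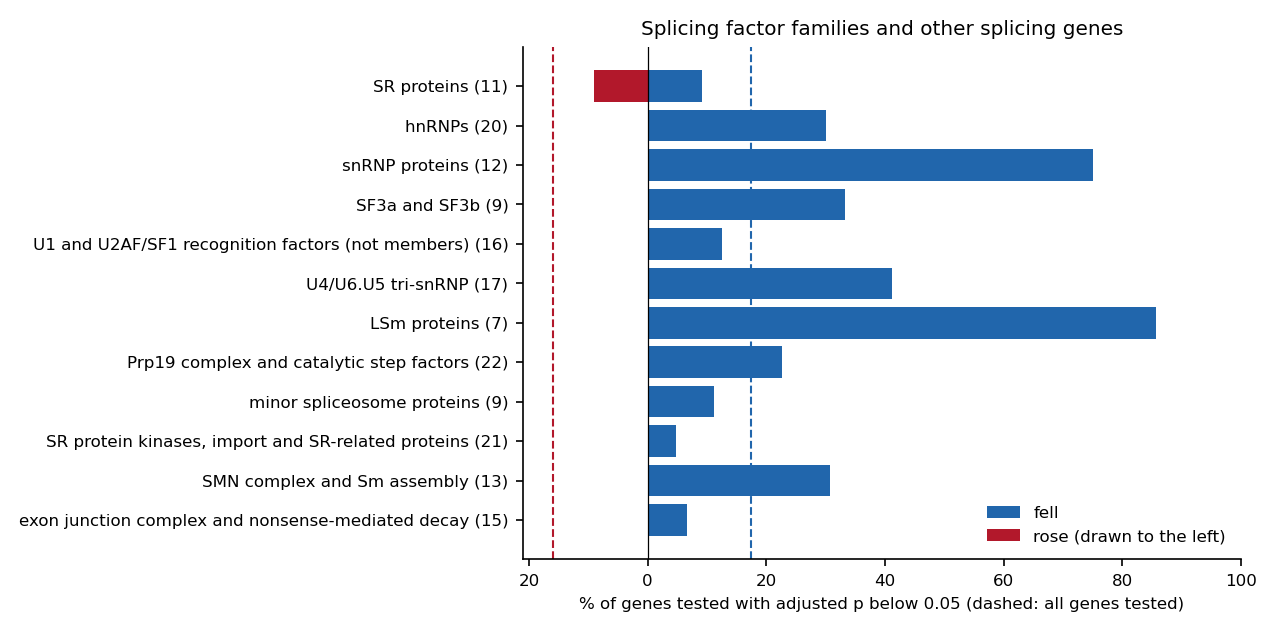
Percent of tested genes that fell (blue, to the right) or rose (red, to the left) at an adjusted p below 0.05 in each family and in each list of other splicing genes, with the number tested in brackets. Dashed lines mark the 17.4% of all genes that fell and the 15.9% that rose; snRNP (75.0%) and LSm genes reach furthest.

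Among the other pairs of related genes, the ratio *Srsf3*/*Srsf7* overlapped narrowly between genotypes, with a difference of 0.04 on the log2 scale and an exact permutation p of 0.0571 (0.157 adjusted over 11 pairs). The 7 remaining pairs, *Snrpa*/*Snrpb2*, *Srsf1*/*Srsf9*, *Srsf4*/*Srsf6*, *Hnrnpa1*/*Hnrnpa2b1*, *Hnrnph1*/*Hnrnph2*, *Hnrnpl*/*Hnrnpll* and *Hnrnpul1*/*Hnrnpul2*, differed by -0.10 to 0.12 on the log2 scale, with exact permutation p of 0.286 or more. None of the 11 ratios passed after adjustment.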

How the data were processed

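Retinal poly(A) RNA was made into unstranded TruSeq V2 libraries and sequenced as 50-cycle single reads. The authors aligned the reads to mm10 with TopHat2 and deposited HTSeq counts per gene, not normalized; Cufflinks is also named in the submitters' processing notes, and versions, annotation and strand setting were not given in sources used here. Gene positions and exon lengths came from GENCODE M21, which matched 28232 of 28432 gene IDs.

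The study filter was kept, with at least 20 median-of-ratios normalized counts in at least 3 samples, which left 13891 genes. Genotypes were compared by edgeR 4.0.16 (quasi-likelihood test, TMM, R 4.3.3) in place of the DESeq2 the study used, adjusted over all genes, at the cutoff of 0.001 the study set and at 0.05. The standard error was the log2 fold change divided by the square root of F. Ratios of related genes were compared by exact permutation. The fits were tested on simulated data, in which most of the smallest changes did not pass. A gene that did not pass is therefore not shown to be unchanged. Values in every sample are given for genes below 0.001, for the 3 smallest p in each family and for pairs that did not overlap, and up to 3 genes are named from each other list. The members and lists were chosen with earlier results of these data known.

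Alternatives were DESeq2 1.42.0, limma 3.58.1 voom, other size factors, other filters, the replicate number as a block, embryo sex read from *Xist* (3 female embryos) and leaving out samples. Samples were separate embryos from 3 litters whose assignment was not given, so litter could not be a term. Reads were counted without molecular identifiers. Protein sequences were not used here.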

Additional observations from a re-analysis of the deposited data

Results flagged for a closer look

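Each gene was tested for a sample far from the other 3 of its genotype by Dixon's test, which flags about 1 in 20 groups by chance. It marked 10 of 104 groups, or 9.62%, and 6 of the 10 were in CKO replicate 1. In that library *Srsf5* (5929 normalized counts), *Srsf11* (4198), *Hnrnph1* (19894) and *Hnrnpa2b1* (30869, against 28515 to 28784) were above the other CKO samples, and *Hnrnpul1* (3297, against 3616 to 3668) and *Hnrnpul2* (5990, against 6380 to 6448) were below them. In control replicate 2, *Hnrnpf* (3914) and *Hnrnpm* (8330) were below the other controls. *Snrpc* (1095) was above them in control replicate 3, and *Srsf10* (4027, against 3756 to 3792) in control replicate 4.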

How the results depend on the processing

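Of the 20 genes called at 0.05, all 20 kept their sign in 17 alternatives, and 11 also stayed below 0.05 in each: *Srsf9*, *Hnrnpf*, *Hnrnpm*, *Snrpg*, *Snrpb*, *Snrpd1*, *Snrpd2*, *Snrpb2*, *Snrpd3*, *Sf3a3* and *Sf3b5*. The falls at 0.05 numbered 19 and became 12 with no filter. There hnRNP falls went from 6 to 2, and the share of all genes that fell from 17.4% to 8.02%. With 1 sample left out the falls were 13 to 19 (hnRNP 3 to 7, SR 1 to 3, SR median log2 fold change -0.128 to -0.0751), where 14.1% to 18.3% of all genes fell. SR falls were 4 with library totals (median -0.108), 3 with DESeq2 and 6 without control replicate 3 and CKO replicate 1 together (median -0.131), where 19.8%, 16.4% and 19.5% of all genes fell. Rises at 0.05 were 2 with DESeq2 and 2 without both libraries, of which 1 was an snRNP gene, *Snrpn*, each time, and 0 to 2 with 1 sample left out (SR 0 to 1, snRNP 0 to 1). In these settings 17.0%, 19.3% and 12.5% to 17.3% of all genes rose. Falls at 0.001 were 3 with no filter, 7 with DESeq2, 2 with embryo sex as a term, 2 without both libraries and 0 to 1 with 1 sample left out, where 3.84%, 8.87%, 4.77%, 7.76% and 3.05% to 6.09% of all genes fell. At the cutoff of 0.05 in place of 0.001 there were 19 falls and 1 rise.

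The deviations of same-numbered samples were weakly correlated, at 0.129, -0.153, 0.0478 and -0.119. These values gave no sign that the numbers pair the samples, but whether same-numbered embryos shared a litter is not known. With the replicate number as a block, falls were 0 at 0.001 (2.91% of all genes) and 13 at 0.05 (14.8%), with 3 in hnRNP genes, rises at 0.05 were 0, in SR genes also 0, and the log2 fold change of *Srsf5* was -0.0028.

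Signs turned only in genes and ratios that did not pass. *Srsf5* had -0.003 with library totals, -0.0019 with voom, -0.182 without both libraries and -0.165 to 0.11 with 1 sample left out. *Hnrnpdl* had -0.0141 with library totals, -0.0181 without both and -0.0364 to 0.058 with 1 sample left out, and *Hnrnph3* 0.0005 with DESeq2 and -0.0387 to 0.01 with 1 sample left out. Without both libraries, *Srsf11* had -0.0136, *Srsf6* -0.0918, *Hnrnpab* 0.0357, *Hnrnph1* -0.0933 and *Sf3b6* 0.0222, and with 1 sample left out the ranges were -0.0062 to 0.112, -0.0885 to 0.104, -0.0601 to 0.0138, -0.0696 to 0.0819 and -0.1004 to -0.0023. The ratios *Srsf1*/*Srsf9*, *Srsf4*/*Srsf6*, *Hnrnph1*/*Hnrnph2* and *Hnrnpl*/*Hnrnpll* turned to -0.0311, 0.0116, -0.026 and -0.0133 without both, and with 1 sample left out were 0.0123 to 0.105, -0.172 to 0.0353, -0.0128 to 0.122 and -0.0372 to 0.0493. The cause was not tested. With 4 embryos of each genotype, the exact test of a ratio cannot pass after adjustment over 11 pairs unless several ratios separate.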
